A study of Mus musculus with 36 samples.

Results

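RNA sequencing was used to compare mouse lymphoma cells carrying the mutant p53 protein R270H with cells carrying a negative control, both after nutlin-3a. The 6 libraries compared, of 36 in the series, were chosen by their labels: 3 labelled R270H and nutlin-3a treated, and 3 labelled negative control and nutlin-3a treated. Each group held 1 library from each of the cell lines AH47A, 287 and 621, so that every R270H library had a control library of its own line. All values below are given in that order of lines.

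The whole series covered 6 constructs in these 3 lines, each sampled untreated and after nutlin-3a. The background of all lines is labelled Em-myc, a Myc transgene under an immunoglobulin heavy chain enhancer that gives B lymphoid tumours. R270H and the other mutants (G280, I192S, R246Q and V170M) were added to cells in which nutlin-3a activates the wild-type p53 they already have. The control is called pMIG in the sample descriptions. Treated cultures of both groups received 5 µM nutlin-3a for 12 hours together with 25 µM of the caspase inhibitor QVD-OPH. The untreated libraries used for reference carried the same constructs, and whether they received it is not stated in the labels. The labels name no repeat culture of a line, so that the p-values measure the spread between libraries of these 3 lines.

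p53 is a transcription factor that binds DNA as a tetramer. MDM2, itself the product of a p53 target gene, ubiquitinates p53 and masks its activation domain, and nutlin-3a occupies the pocket of MDM2 that holds p53. Freed p53 raises genes of cell cycle arrest, apoptosis, DNA repair and metabolism, and lowers many proliferation genes indirectly. A mutant subunit with a damaged DNA-binding domain can enter tetramers with wild-type subunits, and the comparison asks how far R270H changes the output of the activated wild-type protein.

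The 6 libraries held 5404113 to 9312256 counts (median 8184170), and 12321 of 27179 genes were tested. B lineage markers fitted the labelled tissue: all 8 were detected, none was called, and their sum lay between 1158 and 1509 CPM, the counts of a gene divided by the scaled library size, in the control and 1201 and 1439 CPM with R270H. The T cell sum was 0.185 to 21.3 CPM in the control and 0.652 to 24.6 CPM with R270H, from Lck and Zap70, which were its only tested members, with Cd3g and Cd4 at 0. The myeloid sum was 14.6 to 46.9 and 12.5 to 35.6 CPM, mostly Itgam, with Adgre1, S100a8, S100a9 and Elane at 0. Neither list had a called member.

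The R270H library of line 621 stood apart. Its row for the ribosomal RNA precursor, Rn45s, held 7995 CPM, against 679 to 1464 CPM in the other 5 libraries and at most 5004 CPM in the other 35 of the series. The small nuclear RNA Rn7sk stood at 56.3 CPM there against 1.03 to 3.33, and Rmrp, the RNA of a ribonuclease, at 21.0 against 0.103 to 0.460 CPM. These RNAs mostly lack a poly(A) tail. Mitochondrial transcripts took 5.68% of its counts, against 2.66% to 4.76% in the other 5. Over the series that was not the highest share, as the untreated I192S library of 287 held 5.77%. Results are therefore given with and without the R270H library of 621, and its part in them beyond that was not tested. The 5004 CPM of Rn45s belonged to the V170M nutlin library of AH47A, with Rn7sk at 11.2 and Rmrp at 3.33 CPM. That library was used below to choose genes that respond to nutlin and in the contrast with the other mutants.

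Under nutlin, 448 genes differed between R270H and control cells at an adjusted p under 0.05 (3.64% of those tested). 241 were higher with R270H (1.96%) and 207 lower (1.68%). Most differences were small: the median fold of the called genes was 1.32 for higher and 1.38 for lower genes, 105 exceeded 1.5-fold and 25 exceeded 2-fold. The sign was the same in all 3 lines for 441 of the 448, and the call itself favours genes that differ alike in the lines. The called lower genes had a median log2 difference of -0.54 in AH47A, -0.31 in 287 and -0.59 in 621, and the called higher genes 0.36, 0.31 and 0.49. The largest of the 3 differences lay in AH47A for 150 called genes, in 287 for 55 and in 621 for 243.

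The number of genes called differed widely between models and sets of libraries. The count of 448 comes from a model of all 36 libraries with a separate cell line term in each treatment. Untreated libraries and those of the other mutants thus enter its estimate of the spread. That spread, as biological coefficient of variation, was 9.68%, against 11.8% in the 18 nutlin libraries alone and 7% in the 18 untreated ones. With the 18 nutlin libraries alone the count was 0 (1637 genes at an unadjusted p under 0.05), with an additive line term 1, with only the 6 libraries 110, and with DESeq2 707. Without the R270H library of 621 it was 106, of which 87 were among the 448, and all 448 kept their direction. The call favours genes that differ alike in the lines, so a kept direction gives little further support. Without the control library of 621 the count was 87, without the R270H library of AH47A 166, and without that of 287 it was 741. Without line AH47A it was 72, without 287 it was 278 and without 621 it was 20. Of the 68 called genes named by rule, 3 were called in each of the 9 fits that left out 1 line or library. Calls below are those of the 36-library model, and a second adjusted p after a semicolon is the one without the R270H library of 621.

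**Figure D1:**
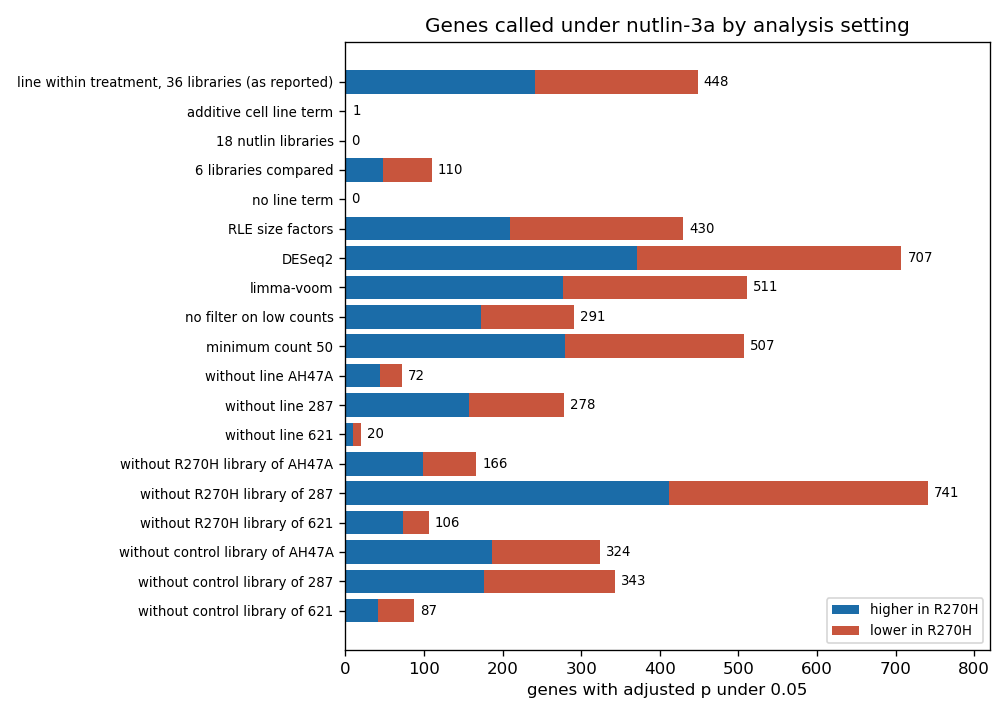
Number of genes with an adjusted p under 0.05 between R270H and control under nutlin-3a (horizontal axis), higher in blue and lower in red, for the analysis reported and for each alternative (vertical axis). The count is 448 as reported, 0 with the 18 nutlin libraries alone and 741 without the R270H library of 287.

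Trp53, the gene of p53 itself, was higher with R270H, the direction a Trp53 construct gives. It stood at 261, 446 and 299.6 CPM in the control and 799, 799 and 446 CPM with R270H, and the groups overlapped: R270H cells of 621 held as much as control cells of 287. The difference was log2 1.04 ± 0.24, adjusted p = 0.0211 (adjusted p = 0.034 without the R270H library of 621). It was 1.61 in AH47A, 0.84 in 287 and 0.57 in 621. The call ended without the R270H library of AH47A, any 1 of the 3 control libraries or any 1 line. Before treatment the levels were 217, 291 and 206 CPM in the control and 999, 1212 and 784 CPM with R270H, and here the groups did not overlap. That difference was log2 2.07 ± 0.25, adjusted p = 0.000433, and ended without line 287 (adjusted p = 0.351) or line 621 (adjusted p = 0.154).

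The Trp53 gene lies on chromosome 11, 69580348 to 69591873 of GRCm38, on the plus strand, and its counts do not separate endogenous from construct transcripts. The design text calls the proteins human, yet the 4 labels that name both residues (V170M, I192S, R246Q and R270H) match the mouse reading frame of 390 codons, 4 of 4. Codon 280 of that frame is CGT, which does not encode the G of the label G280. The mouse frame of 381 codons matched the same 4 labels, and those of 387 and 378 codons matched none of the labels. The stretch around codon 270 is shown because it is the site that R270H alters. It lies in exon 8 of transcript ENSMUST00000108658.9, with the codon at chr11:69589607-69589609 in capitals and the stretch at chr11:69589594-69589622 of the GENCODE annotation of GRCm38.
Trp53 codon 270: cagctttgaggttCGTgtttgtgcctgcc
It is reference sequence, and no read of the construct was examined.

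Genes by which p53 is held back were mostly lower with R270H. Of 7 tested feedback genes 3 were called lower (42.9%, against 1.68% of all genes tested) and 6 were negative. The list's median was -0.33, against 0.00 over all genes tested, of which 50.6% were negative. Mdm2 stood at 440.1, 1419.6 and 365 CPM in the control and 229.5, 1130.2 and 310.5 CPM with R270H. It was lower with R270H within every line, though the lines differed by more than the constructs. The fall was 29.6% (log2 -0.51 ± 0.13, adjusted p = 0.0264; adjusted p = 0.0455 without the R270H library of 621). It was -0.33 (adjusted p = 0.147) without the AH47A control, -0.41 (adjusted p = 0.134) without the R270H library of AH47A and -0.28 (adjusted p = 0.106) without that line. Mdm4, which encodes a relative of MDM2 that blocks the activation domain of p53, stood at 478, 1062 and 405 CPM in the control and 196, 805 and 288 CPM with R270H. It was 38.8% lower (log2 -0.71 ± 0.13, adjusted p = 0.00693), with an adjusted p = 0.0295 without the R270H library of 621. The 3 lines gave -1.29 in AH47A, -0.40 in 287 and -0.49 in 621, and without AH47A the model gave -0.44 (adjusted p = 0.105). Rchy1, which encodes the ubiquitin ligase PIRH2, was lower by 30.1% (log2 -0.52 ± 0.14, adjusted p = 0.0314; adjusted p = 0.0521), and by -0.30 (adjusted p = 0.218) without the R270H library of AH47A. Ccng1, the gene of cyclin G1, did not pass the test (log2 -0.33 ± 0.10, adjusted p = 0.0599). Its levels of 631, 864 and 686 CPM in the control and 366, 770.0 and 673 CPM with R270H differed mainly in AH47A. Bulk libraries cannot tell fewer cells responding from a weaker response in each cell.

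Arrest genes were mostly negative, but few were called. Of 11 tested, 10 were negative and 1 was called lower (9.09%, against 1.68% of all genes tested), with a median of -0.35. Cdkn1a, the gene of the cyclin-dependent kinase inhibitor p21, stood at 398, 605 and 234 CPM in the control and 236, 471 and 165 CPM with R270H. It was lower with R270H in each line and missed the threshold (log2 -0.56 ± 0.16, adjusted p = 0.0553). Gtse1, whose product acts on p53 in the G2 phase, was the called member. It stood at 443, 672 and 312 CPM in the control and 294, 531 and 182 CPM with R270H, a fall of 32.1% (log2 -0.56 ± 0.12, adjusted p = 0.0122; adjusted p = 0.0819 without the R270H library of 621).

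Of 15 tested apoptosis targets 5 were called lower (33.3%, against 1.68% of all genes tested) and 14 were negative, with a median of -0.38. Bax, which opens the outer mitochondrial membrane, stood at 203, 277 and 216 CPM in the control and 156, 238 and 148 CPM with R270H. Within each line it was lower with R270H, by 23.0% in the model (log2 -0.38 ± 0.09, adjusted p = 0.0169; adjusted p = 0.112 without the R270H library of 621). Phlda3, which encodes an inhibitor of AKT signalling, showed the largest fall of the list. Its levels were 30.6, 119 and 35.3 CPM in the control and 7.65, 77.8 and 11.3 CPM with R270H, a fall of 58.9% (log2 -1.28 ± 0.27, adjusted p = 0.0122; adjusted p = 0.0679). Apaf1, the scaffold of the apoptosome (log2 -0.29 ± 0.08, adjusted p = 0.0427), Ei24 (log2 -0.32 ± 0.08, adjusted p = 0.022) and Pidd1, which encodes a death domain protein (log2 -0.50 ± 0.14, adjusted p = 0.0446), were also called lower. Without that library none of these 5 was called, and without the AH47A control Pidd1 was at -0.32 (adjusted p = 0.255).

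2 well-known genes of this list, Bbc3 and Pmaip1, were not called. Bbc3, the gene of the BH3-only protein PUMA, stood at 327, 685 and 150.0 CPM in the control and 202, 415 and 76.8 CPM with R270H, lower with R270H in all 3 lines (log2 -0.79 ± 0.25, adjusted p = 0.0785). Pmaip1, the gene of NOXA, stood at 279.8, 846 and 172 CPM in the control and 304, 623 and 196 CPM with R270H. It was higher with R270H in AH47A and 621 and lower in 287 (log2 -0.02 ± 0.23, adjusted p = 0.98). Bcl2l11 encodes BIM, a BH3-only protein of the BCL2 family list rather than of the p53 lists. It stood at 241, 291 and 220.5 CPM in the control and 132, 194 and 169 CPM with R270H, and the groups did not overlap. Its fall of 34.6% was among the steadier calls (log2 -0.61 ± 0.13, adjusted p = 0.0119; adjusted p = 0.0296 without the R270H library of 621). It was the only called gene of the 9 tested in that list (11.1%, against 3.64% of all genes tested). The list does not hold Bax and had a median of -0.01. Mcl1, which guards mitochondria, was at log2 0.29 ± 0.09, adjusted p = 0.0584.

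**Figure D2:**
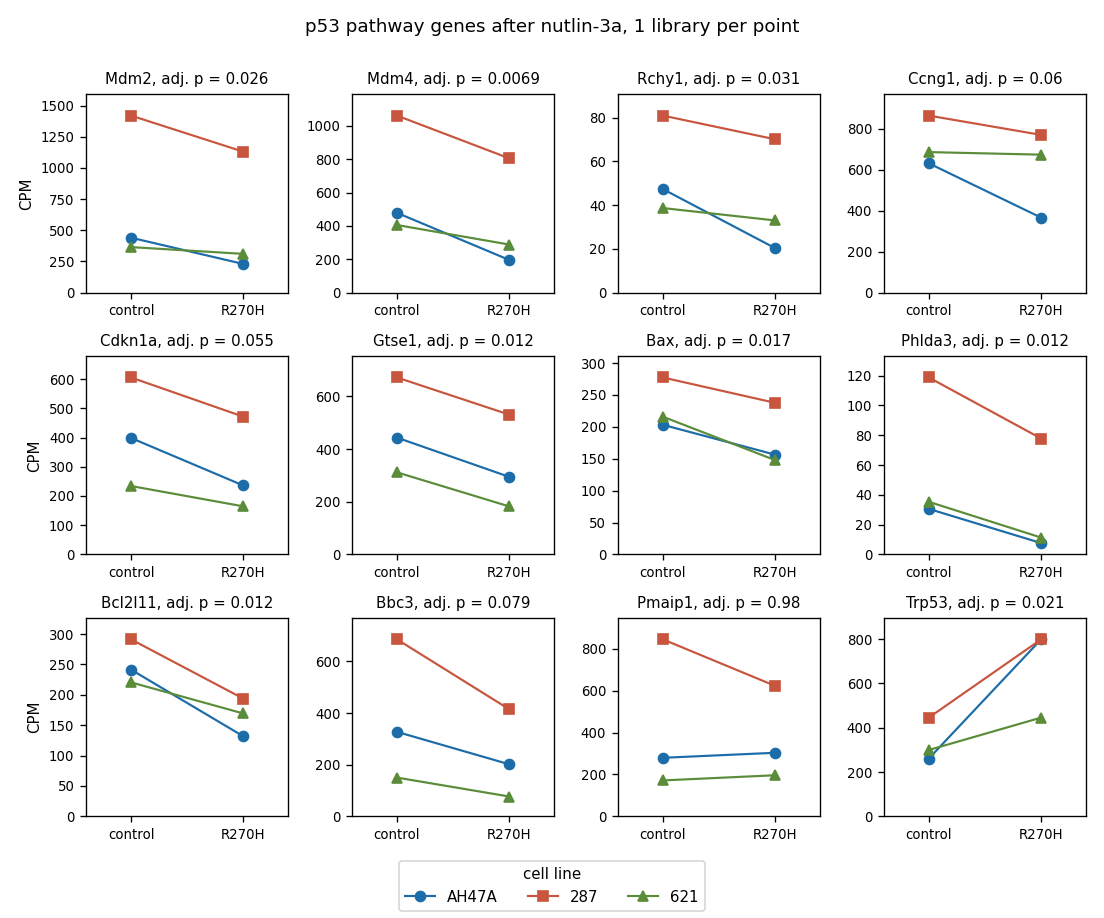
CPM (vertical axes, from 0) of 12 p53 pathway genes after nutlin-3a in control and R270H libraries, 1 point per library, with lines joining the libraries of a cell line. Mdm2, Mdm4, Rchy1, Ccng1, Cdkn1a, Gtse1, Bax, Phlda3, Bcl2l11 and Bbc3 were lower with R270H in all 3 lines, Pmaip1 only in 287, and Trp53 was higher in all 3.

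Of 14 metabolic targets 3 were called lower (21.4%, against 1.68% of all genes tested), with a median of -0.38. Ak1, an adenylate kinase gene, stood at 33.9, 73.9 and 26.3 CPM in the control and 4.45, 46.4 and 7.95 CPM with R270H, a fall of 65.7% (log2 -1.54 ± 0.35, adjusted p = 0.021; adjusted p = 0.0976 without the R270H library of 621). Sesn2, whose product restrains mTORC1, was at log2 -0.70 ± 0.18, adjusted p = 0.0287, and Fuca1, a lysosomal fucosidase gene, at log2 -0.56 ± 0.13, adjusted p = 0.0197. Of 12 repair targets 1 was called lower and 1 higher (16.7%, against 3.64% of all genes tested), with a median of -0.10. Ercc5, which encodes an excision repair nuclease, was lower (188, 353 and 136 CPM in the control and 81.9, 279.7 and 101 CPM with R270H; log2 -0.64 ± 0.16, adjusted p = 0.0300). Rpa1, a single-strand DNA binding gene, was higher (log2 0.25 ± 0.06, adjusted p = 0.0192). None of these 5 was called without the R270H library of 621, and without the AH47A control Sesn2 was at -0.43 (adjusted p = 0.185).

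Of 20 other p53 targets 6 were called lower (30%, against 1.68% of all genes tested) and 19 were negative. The median of -0.62 was the lowest of the 6 p53 lists. Slc19a2, a thiamine transporter gene, stood at 121, 181 and 107 CPM in the control and 74.6, 139.6 and 63.9 CPM with R270H (log2 -0.59 ± 0.11, adjusted p = 0.00496; adjusted p = 0.0295 without the R270H library of 621). Exoc4, of the exocyst, was at log2 -0.62 ± 0.13, adjusted p = 0.0113, and Notch1, a receptor gene, at log2 -0.74 ± 0.18, adjusted p = 0.0245. Rnf169, whose product acts at DNA breaks, was at log2 -0.67 ± 0.16, adjusted p = 0.0211, the ephrin receptor gene Epha2 at log2 -0.93 ± 0.24, adjusted p = 0.0378 and the reductase gene Dcxr at log2 -0.99 ± 0.25, adjusted p = 0.0288. Slc19a2 was the only one of the 6 called without that library, and without the AH47A control Rnf169 was at -0.44 (adjusted p = 0.121).

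Over the 6 p53 lists together, 19 of 79 tested genes were called lower and 1 higher, 25.3% against 3.64% of all genes tested. 68 were negative, 47 of them in all 3 lines, and the median was -0.35. By line the median was -0.57 in AH47A, -0.18 in 287 and -0.29 in 621. Without the R270H library of 621 the lists held 3 called genes, Mdm2, Mdm4 and Slc19a2, against 0.847% called of all genes tested, while the median was -0.37 and 66 were negative. Before nutlin no list member was called and the median was 0.01.

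Genes that nutlin raised in the other mutants were mostly lower with R270H, and those it lowered mostly higher. In the 24 libraries of the other 4 mutants, which share no library with the comparison, nutlin raised 729 tested genes and lowered 173 by at least a log2 of 1 (adjusted p under 0.05). Of the raised genes 578 were lower with R270H than with the control. Called lower were 56 (7.68% of the raised genes, against 1.68% of all genes tested), and 0 raised genes were called higher. The median of the raised genes was -0.35 (-0.54 in AH47A, -0.26 in 287 and -0.22 in 621). Of the lowered genes 131 were higher with R270H, with a median of 0.38. Among the lowered genes 8 were called higher (4.62%, against 1.96% of all genes tested) and 0 lower. In either direction 3.64% of all genes tested were called. The 11419 genes in neither set had a median of 0.00, with 3.36% called in either direction. Without the R270H library of 621 the medians were -0.40 and 0.42, with 15 and 6 called, while 0.847% of all genes tested were called. With no minimum change the medians were -0.11 and 0.0943. These genes also respond to nutlin when a mutant is present, since that is how they were chosen.

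**Figure D3:**
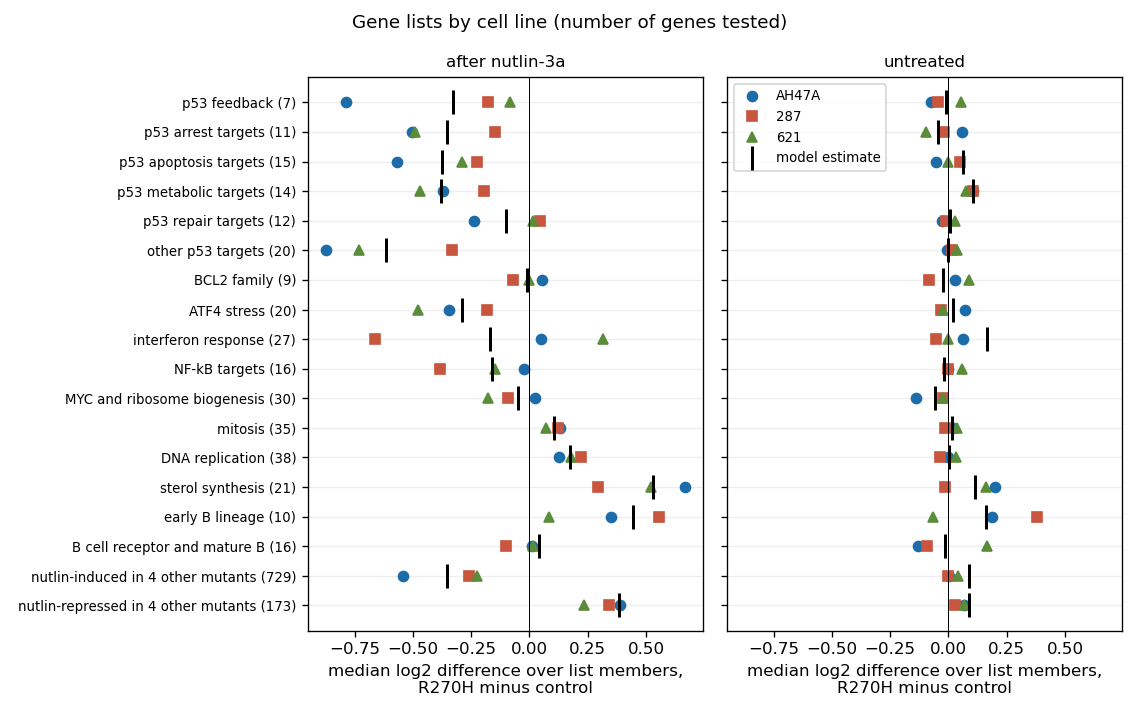
Median log2 difference between R270H and control over the tested members of each gene list (horizontal axis), after nutlin-3a on the left and untreated on the right, with 1 symbol per cell line and a bar for the model estimate. After nutlin-3a the model estimates of the p53 lists lie below 0, those of single lines too except in the repair list, and sterol synthesis lies above 0, with the interferon list at -0.66 in 287 and 0.32 in 621.

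p53 binds pairs of a short half-site, often in promoters or first introns. Windows of 300 bases (250 before to 50 after the RefSeq start, GRCm38.p6) were searched for the p53 half-site on both strands. It was present in 8.36% of all 32851 promoters, in 20.7% of the 92 promoters matched to 67 tested p53 list genes, and in 6 of 26 promoters of the called ones. It was also in 5 of 17 promoters (29.4%) matched to sterol synthesis genes, described below. The 60 bases around it are shown for 4 called genes, 5′ to 3′ on the gene's own strand, with the half-site in capitals.
Mdm2 (chr10:117710910-117710969, minus strand): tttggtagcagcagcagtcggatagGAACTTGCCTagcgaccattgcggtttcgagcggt
Bax (chr7:45467065-45467124, minus strand): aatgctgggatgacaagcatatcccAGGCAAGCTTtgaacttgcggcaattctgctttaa
Rchy1 (chr5:91962612-91962671, minus strand): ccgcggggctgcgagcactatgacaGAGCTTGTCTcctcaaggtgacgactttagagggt
Exoc4 (chr6:33248900-33248959, plus strand): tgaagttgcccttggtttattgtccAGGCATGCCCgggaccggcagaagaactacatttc
Ei24 and Gtse1 also held a match, close to the start of transcription. A match is a description of the letters and not a measured site.

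Most genes of cholesterol synthesis were higher with R270H. The enzymes of this pathway are raised together by the transcription factor SREBP2 when cell sterol is low. Of 21 tested genes 11 were called higher (52.4%, against 1.96% of all genes tested), 20 were positive, and the median was 0.53. Along the pathway, Hmgcs1, which makes its first committed intermediate, stood at 169.6, 57.4 and 59.9 CPM in the control and 322, 77.0 and 113 CPM with R270H (log2 0.77 ± 0.15, adjusted p = 0.00835; adjusted p = 0.0391 without the R270H library of 621). Idi1, an isomerase of the isoprenoid steps, stood at 44.4, 13.3 and 21.5 CPM in the control and 58.6, 21.6 and 41.1 CPM with R270H (log2 0.66 ± 0.11, adjusted p = 0.00246; adjusted p = 0.026). Sqle, squalene epoxidase, stood at 87.4, 23.5 and 57.3 CPM in the control and 149, 29.7 and 83.7 CPM with R270H (log2 0.57 ± 0.10, adjusted p = 0.00311; adjusted p = 0.0245). Lss, the cyclase that closes the sterol rings, was at log2 0.60 ± 0.14, adjusted p = 0.0211, and Msmo1, which removes a methyl group later on, at log2 0.73 ± 0.15, adjusted p = 0.00835. Lss and Msmo1 were not called without that library. Insig1, an inhibitor of SREBP processing and itself a target, stood at 67.0, 44.2 and 30.5 CPM in the control and 107, 53.2 and 48.2 CPM with R270H (log2 0.53 ± 0.11, adjusted p = 0.00835; adjusted p = 0.0445). The list held 7 called genes without that library, with a median of 0.46. By line the median was 0.67 in AH47A, 0.29 in 287 and 0.52 in 621. Untreated, the same genes had no call, while 19 of 21 were positive with a median of 0.11. Idi1 differed by 0.04 and Hmgcs1 by 0.25.

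Of 6 promoters matched to 6 of the 11 called sterol genes 1, that of Hmgcs1, carried the sterol element TCACNCCAC (searched on both strands), and so did 1 of 17 promoters of all tested ones and 1.24% of all promoters. It is shown with the element in capitals.
Hmgcs1 (chr13:119690188-119690247, plus strand): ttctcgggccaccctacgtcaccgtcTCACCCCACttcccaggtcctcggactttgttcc

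Most replication genes were also positive, with smaller values. Of 38 tested genes 7 were called higher (18.4%, against 1.96% of all genes tested) and 34 were positive, with a median of 0.17. Uhrf1, which brings the maintenance DNA methyltransferase to replicated DNA, stood at 182, 138 and 155 CPM in the control and 266, 204 and 223 CPM with R270H. The groups did not overlap, and the lines gave 0.54 in AH47A, 0.56 in 287 and 0.52 in 621 (log2 0.54 ± 0.08, adjusted p = 0.000719; adjusted p = 0.0049 without the R270H library of 621). Pcna, the sliding clamp of DNA polymerases, stood at 123, 123 and 127 CPM in the control and 168, 148 and 217 CPM with R270H. Here too the groups did not overlap (log2 0.50 ± 0.08, adjusted p = 0.000888; adjusted p = 0.0213). The transcription factor genes E2f1 (log2 0.40 ± 0.09, adjusted p = 0.00965; adjusted p = 0.0292) and E2f2 (log2 0.42 ± 0.11, adjusted p = 0.0292; adjusted p = 0.0604) were called, as were Ccne2, a cyclin E gene (log2 0.46 ± 0.12, adjusted p = 0.0313), Prim2, a primase subunit (log2 0.34 ± 0.08, adjusted p = 0.0197), and Mcm6, of the replicative helicase (log2 0.20 ± 0.06, adjusted p = 0.0408). Without the control library of 287 E2f2 was at 0.26 (adjusted p = 0.181). Only Uhrf1, Pcna and E2f1 were called without the R270H library of 621, and the median was then 0.18.

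The E2F elements TTTCCCGC and TTTGGCGC were present, on either strand, in 1.56% of all promoters and in 10 of 36 promoters matched to 30 tested replication genes. Of the 7 promoters of called genes 2 held one, Mcm6 and E2f2. The window of Mcm6 is shown with the element in capitals, and that of E2f2 lies past the start of transcription.
Mcm6 (chr1:128359782-128359841, minus strand): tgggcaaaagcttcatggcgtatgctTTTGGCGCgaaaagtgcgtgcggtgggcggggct

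Of 35 tested mitosis genes 3 were called higher (8.57%, against 1.96% of all genes tested) and 24 were positive, with a median of 0.11. Ccna2, the gene of cyclin A2, stood at 564, 175 and 539.5 CPM in the control and 721, 207 and 729 CPM with R270H (log2 0.35 ± 0.07, adjusted p = 0.00965; adjusted p = 0.0417 without the R270H library of 621). The kinase gene Cdk1 (log2 0.27 ± 0.07, adjusted p = 0.0419) and the topoisomerase gene Top2a (log2 0.19 ± 0.05, adjusted p = 0.0446) were called with it and not without it. Of 30 genes of MYC targets and ribosome biogenesis 1 was called lower (3.33%, near the 3.64% called of all genes), Cad, the first enzyme of pyrimidine synthesis (log2 -0.38 ± 0.10, adjusted p = 0.0409; adjusted p = 0.234). Myc itself was at log2 -0.08 ± 0.10, adjusted p = 0.708, and its counts do not separate the transgene from the endogenous gene.

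**Figure D4:**
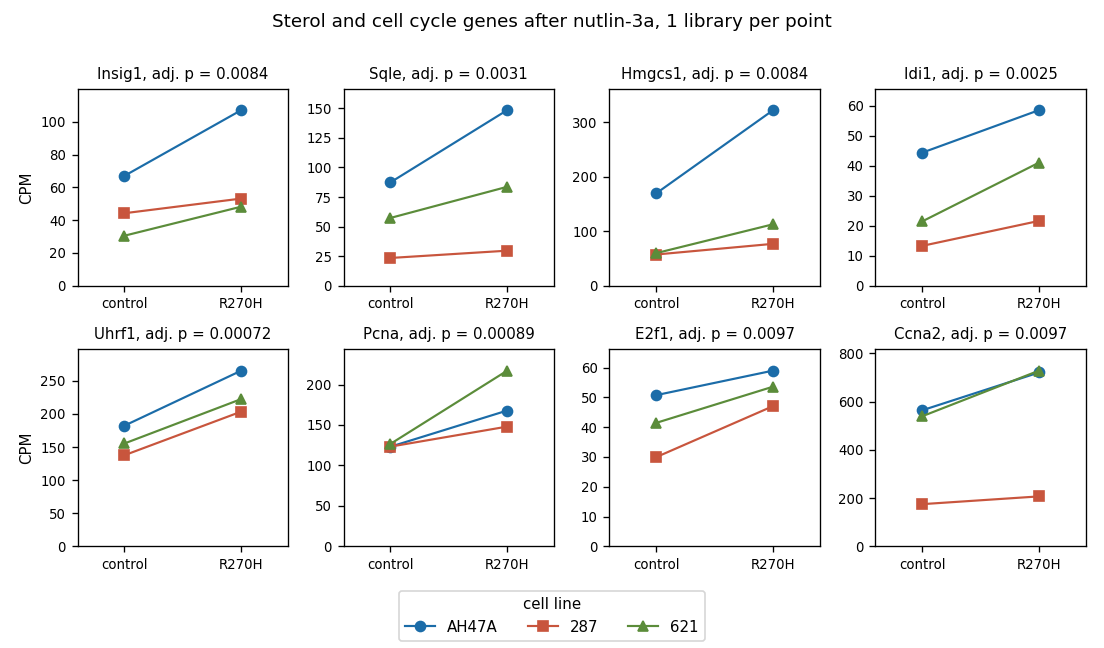
CPM (vertical axes, from 0) of 4 sterol genes (Insig1, Sqle, Hmgcs1, Idi1) and 4 cell cycle genes (Uhrf1, Pcna, E2f1, Ccna2) after nutlin-3a in control and R270H libraries, 1 point per library, joined by cell line. All 8 were higher with R270H in every line, and for Uhrf1 and Pcna the groups do not overlap.

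Genes of the ATF4 stress programme, which raises amino acid transport and synthesis, were mostly negative. Of 20 tested genes 5 were called lower (25%, against 1.68% of all genes tested) and 19 were negative (50.6% of all genes tested). In all 3 lines 15 were lower, against 2166 of the 12321 genes tested, and the median was -0.29. Slc3a2, a subunit of amino acid transporters, stood at 638, 1319 and 719.8 CPM in the control and 469, 932 and 496 CPM with R270H, with -0.45 in AH47A, -0.50 in 287 and -0.54 in 621 on the log2 scale (log2 -0.49 ± 0.11, adjusted p = 0.0186; adjusted p = 0.0687 without the R270H library of 621). Gpt2, a mitochondrial alanine transaminase gene, was at log2 -0.53 ± 0.14, adjusted p = 0.0302, and Pck2, mitochondrial PEP carboxykinase, at log2 -0.46 ± 0.13, adjusted p = 0.0421. Atf4 itself (log2 -0.30 ± 0.09, adjusted p = 0.0499) and Shmt2, a serine hydroxymethyltransferase gene (-0.26 ± 0.08), lay just inside the threshold. Without that library none was called and Shmt2 was at -0.15 (adjusted p = 0.315), while the median was -0.29.

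Interferon genes had different signs in different lines. Of 27 interferon genes 1 was called lower (3.7%, near the 3.64% called of all genes), Bst2, which encodes tetherin (log2 -0.46 ± 0.11, adjusted p = 0.0243; adjusted p = 0.133 without the R270H library of 621). In 287, 27 of 27 were lower with R270H, with a median of -0.66. In 621 19 of 27 were higher, with a median of 0.32, and in AH47A 14 of 27 were higher, with a median of 0.05. Over the lines the median was -0.17, and -0.38 without that library. With 1 library per line and construct this difference between lines was not tested. Of 16 NF-kB targets none was called, and 12 were negative (median -0.16). Nfkb2 was at log2 -0.66 ± 0.23, adjusted p = 0.103 and Relb at log2 -0.72 ± 0.24, adjusted p = 0.0861, both subunit genes of NF-kB.

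Genes of B cell identity were not called. None of 16 mature B cell genes passed the test (median 0.04). None of 10 early B lineage genes passed it either. Their median was 0.44, the lines differed widely in level, and Il7r, an interleukin receptor gene, stood at 83.2, 42.8 and 20.3 CPM in the control and 104, 124 and 22.9 CPM with R270H (log2 0.66 ± 0.35, adjusted p = 0.315).

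**Figure D5:**
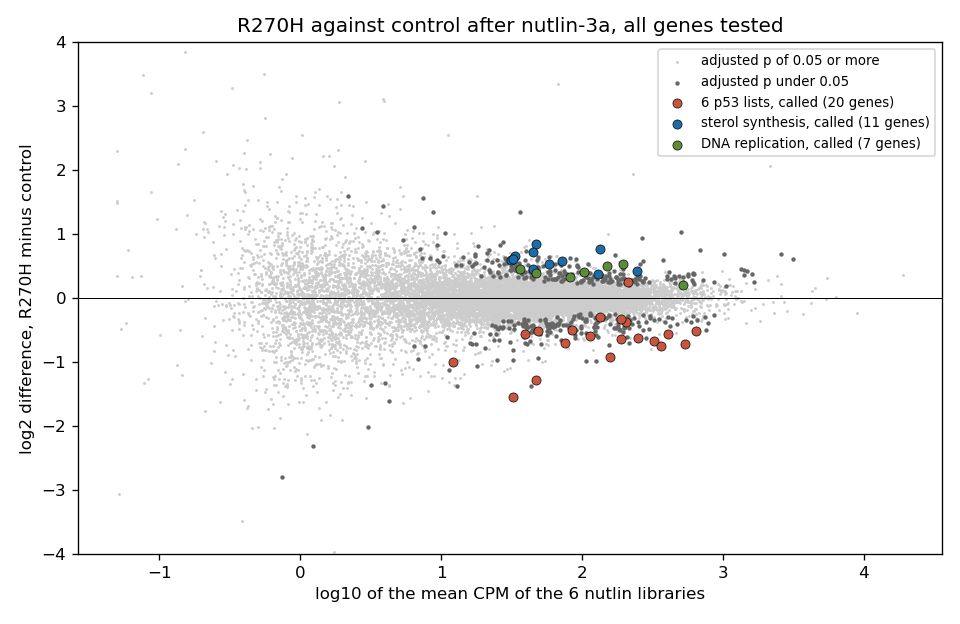
Log2 difference between R270H and control (vertical axis) against log10 of the mean CPM of the 6 nutlin libraries (horizontal axis) for all genes tested, with called members of the p53 lists in red, sterol synthesis in blue and DNA replication in green. The 20 called p53 list genes lie below 0 except Rpa1, the 11 sterol and 7 replication genes above 0, and 2 genes fall outside the axis limits.

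The genes below are those with the largest called differences of 1 sign in all 3 lines. Dag1, which encodes the laminin receptor dystroglycan, stood at 29.5, 6.78 and 20.3 CPM in the control and 61.1, 10.8 and 35.6 CPM with R270H, 1.83-fold higher (log2 0.88 ± 0.13, adjusted p = 0.000719; adjusted p = 0.00266 without the R270H library of 621). It was called without any 1 line or library. Klf2, a lymphocyte quiescence factor, stood at 28.5, 5.05 and 16.3 CPM in the control and 142, 5.29 and 21.6 CPM with R270H, with log2 differences of 2.31 in AH47A, 0.06 in 287 and 0.41 in 621 (log2 1.35 ± 0.33, adjusted p = 0.0286; adjusted p = 0.0144). Its difference was 0.42 (adjusted p = 0.436) without the R270H library of AH47A. Srd5a1, a steroid reductase gene, was at log2 0.91 ± 0.22, adjusted p = 0.0232, and Abi2, an actin regulator, at log2 1.02 ± 0.27, adjusted p = 0.0376. Ndufa12, a subunit of respiratory complex I, stood at 2.88, 5.42 and 2.59 CPM in the control and 8.48, 7.83 and 17.7 CPM with R270H (log2 1.57 ± 0.31, adjusted p = 0.00731; adjusted p = 0.0631) and the mitochondrial gene ATP8 at 171, 106 and 228 CPM in the control and 272, 156 and 672 CPM with R270H (log2 0.95 ± 0.21, adjusted p = 0.0186; adjusted p = 0.109). In both, the library of 621 that stood apart was the highest. The others of the 12 highest besides Trp53 were Gm5453, C78197, Gm10521, the ribosomal pseudogene Rpl13-ps6, whose reads can come from its parent gene, and the unnamed gene 100503283, between 1.04 (Gm10521) and 1.44 (Gm5453).

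The 12 lowest held Phlda3 and Ak1, described above, and 10 other genes. Plekha7, which encodes an adherens junction protein, stood at 53.4, 103 and 22.4 CPM in the control and 15.2, 62.6 and 5.48 CPM with R270H (log2 -1.37 ± 0.27, adjusted p = 0.00835; adjusted p = 0.0415 without the R270H library of 621). St14, a membrane protease gene, stood at 27.0, 102 and 61.4 CPM in the control and 7.51, 66.1 and 19.8 CPM with R270H (log2 -1.29 ± 0.33, adjusted p = 0.0314; adjusted p = 0.152), and Nectin4, an adhesion receptor gene, at 10.5, 40.2 and 3.88 CPM in the control and 2.23, 19.2 and 1.96 CPM with R270H (log2 -1.38 ± 0.35, adjusted p = 0.0275; adjusted p = 0.0626). Ptgir, the prostacyclin receptor gene, was at log2 -1.13 ± 0.27, adjusted p = 0.019, the collagen gene Col18a1 was 50.2% lower (adjusted p = 0.0488), and Abtb2 at log2 -1.06 ± 0.29, adjusted p = 0.0403. Afap1l2 (-2.01 ± 0.51), Ahnak2 (-1.61 ± 0.40), Tbc1d2 (-1.32 ± 0.36) and Gm9949 (-1.36 ± 0.36) were of low level, under 12 CPM in each of the 6 libraries. Without the R270H library of 287 Afap1l2 was at -4.03 and Col18a1 at -1.61. Of these 12 only Plekha7 was called without the R270H library of 621.

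Untreated, 1 of 12321 genes was called (0.00812%), Trp53, and 373 had an unadjusted p under 0.05. The untreated log2 difference was -0.01 for Mdm2, 0.05 for Mdm4, 0.14 for Uhrf1 and -0.04 for Bcl2l11. The test of the difference itself, R270H response minus control response, called 0 genes (0%) with edgeR, 93 with DESeq2, and 1325 had an unadjusted edgeR p under 0.05. The interaction was 0.57 ± 0.11 for Pcna (adjusted p = 0.0734), -0.76 ± 0.19 for Mdm4 (adjusted p = 0.122) and -0.49 ± 0.18 for Mdm2 (adjusted p = 0.295). In the 36-library model the edgeR test thus called no single gene for a difference that depends on nutlin, while 3 were called with only the groups compared, 70 without the R270H nutlin library of 287 and 12 without the nutlin control of AH47A.

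R270H was set against the mean of the other 4 mutants under nutlin, a contrast without the control libraries, which enter only the estimate of the spread and of the line terms. Of 12321 genes 4 were called (0.0325%), none of them in a p53 list. 2 were higher with R270H (0.0162%), Nrp2 and Adcy6, and 2 were lower (0.0162%), Maoa and Elk1. Over the 79 genes of the p53 lists the median was 0.09, with 58 positive. Over the 729 nutlin-raised genes it was 0.16, with 546 positive and none called. Those 729 genes were chosen in libraries of these same 4 mutants, so this value is not independent of their choice. For Mdm2 the difference was 0.29 (95% interval 0.09 to 0.49, adjusted p = 0.164) and for Mdm4 0.23 (0.01 to 0.44, adjusted p = 0.325). For Bax it was 0.06 (-0.08 to 0.20), for Bcl2l11 -0.01 (-0.23 to 0.21) and for Phlda3 -0.07 (-0.53 to 0.40). For Trp53 it was -0.49 (-0.90 to -0.09, adjusted p = 0.241). These intervals are not adjusted for the number of genes.

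All mutants share the control libraries, so their differences from the control are given side by side without a test. Mdm2 differed by -0.51 in R270H, -0.73 in G280, -0.72 in I192S, -0.66 in R246Q and -1.08 in V170M. In the same order Uhrf1 differed by 0.54, 0.71, 0.59, 0.57 and 0.79, and Trp53 by 1.04, 1.52, 1.37, 1.26 and 1.99. For these 3 genes R270H had the value nearest to 0, which was not so for the next 5. Bcl2l11 differed by -0.61, -0.55, -0.49, -0.50 and -0.88, Phlda3 by -1.28, -1.18, -0.98, -1.16 and -1.56, Hmgcs1 by 0.77, 0.81, 0.52, 0.65 and 0.72, Pcna by 0.50, 0.54, 0.47, 0.49 and 0.58, and Bax by -0.38, -0.41, -0.37, -0.45 and -0.51.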

How the data were processed

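Counts per gene were deposited by the authors as whole numbers for 27179 genes. Per the submitters' processing notes they came from bcl2fastq 1.8.4 and featureCounts on mm10 (GRCm38); the sources used here name no aligner, annotation or strand setting, so that overlapping and antisense genes are not separated. All 36 per-sample files held the same counts as the columns of the series table.

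edgeR 4.0.16 (R 4.3.3) was run on these counts with TMM scaling and filterByExpr (minimum count 10; 12321 genes, 99.94% of counts). A quasi-likelihood model with robust dispersion held 12 groups and the cell line within each treatment over 36 libraries (biological coefficient of variation 9.68%, 20 residual degrees of freedom). Benjamini-Hochberg adjustment ran over all 12321 genes, and a call means an adjusted p under 0.05. Log2 differences are R270H minus control, ± standard error; CPM are counts over the TMM library size; values per line are differences of log2 CPM with a prior count of 2. Libraries were paired by the cell line in their labels: deviations from the group means correlated within each line (r = 0.863, 0.881 and 0.871). Intervals use the residual degrees of freedom. The method was also run on counts simulated from this same model, which cannot show whether the model suits these libraries.

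Genes were named by a rule: the 12 highest and 12 lowest called differences with 1 sign in all lines and at least 2 CPM, up to 6 per direction in other tests, up to 8 called members of a list or else the 4 most abundant, and Trp53 with 7 known genes. Other genes named (Mcl1, Relb) were chosen after their values were seen, and some genes that the rule names are not reported here. The libraries, the model and the 16 gene lists were chosen with earlier results of these data known, the model because the lines respond to nutlin differently. Alternatives were DESeq2 1.42.0, limma-voom 3.58.1, other models, scaling and filters, and leaving out lines or libraries; leaving the R270H library of 621 out of the nutlin-responsive medians was added after seeing the data. Gene coordinates are from RefSeq (GRCm38.p6) and 1-based.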

Additional observations from a re-analysis of the deposited data

Results flagged for a closer look

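Of the genes tested between R270H and the mean of the other 4 mutants under nutlin, 4 passed an adjusted p under 0.05, which is a direct test of the difference between mutants. Nrp2, a co-receptor for semaphorins and VEGF, was higher by a fitted log2 of 6.17 (adjusted p = 0.0121). That value rests on 1 library: Nrp2 had 169 counts in the R270H nutlin library of AH47A, 170 in the untreated one, and 0 in the other R270H libraries, and its level in the other mutants under nutlin was at most 0.628 CPM. Adcy6, an adenylyl cyclase gene, was higher by 4.23 ± 0.70 (adjusted p = 0.0121), also through AH47A, with 153 counts under nutlin and 216 untreated. G280 cells of the same line held 7.35 CPM of it under nutlin, and R270H cells 21.3 CPM. Without the R270H library of AH47A both calls were lost (adjusted p = 1 for Nrp2 and 0.55 for Adcy6).

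Elk1, a serum response transcription factor gene, was lower by 0.67 on the log2 scale (-0.67 ± 0.11, adjusted p = 0.0121). R270H libraries held 9.60, 6.79 and 6.78 CPM (AH47A, 287 and 621) and the other mutants' means were 10.9 to 13.7 CPM. Without the R270H library of 621 the call was lost (adjusted p = 0.233). Maoa, monoamine oxidase A, was lower by 2.83 (-2.83 ± 0.49, adjusted p = 0.0214). It was detected almost only in 287, at 1.27 CPM with R270H, 5.91 CPM in the control and 8.63 to 11.1 CPM in the other mutants of that line. Over the alternatives tried, Nrp2 was called in 15 of 22, Adcy6 in 15 of 23, Elk1 in 20 of 26 and Maoa in 14 of 25.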

How the results depend on the processing

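The 448 genes called under nutlin became 1 with an additive line term, 0 with the 18 nutlin libraries, 110 with only the groups compared, 707 with DESeq2 and 291 without a filter on low counts. Without the replicate block for cell line 0 were called (157 at an unadjusted p under 0.05), and this fit's coefficient of variation was 50.9%. RLE scaling (430), limma-voom (511) and a minimum count of 50 (507) stayed within 1.5 times. Leaving out a line gave 20 to 278 calls, and leaving out a library 87 to 741. At least 444 of the 448 kept their direction in every alternative but the minimum count of 50, where the 441 still tested did. All 68 named called genes kept theirs wherever tested. These genes were chosen by their call in the same libraries, which favours 1 sign in the lines. A kept direction is thus no separate support. The cause of the shifts in the number of calls was not tested. Untreated, the 1 call became 2 with an additive line term, 0 with 18 libraries, 4 with only the groups compared and 0 without the block, and ranged from 0 to 2 over the leave-outs. For the response difference the count of 0 became 3 with only the groups compared and 93 with DESeq2, and 0 to 70 over the leave-outs. Against the other 4 mutants the 4 calls became 0 with 18 libraries, 0 with only the groups compared, 0 without the block, 169 with DESeq2 and 11 without a filter, and 1 to 157 over the leave-outs. With no minimum change, the medians of nutlin-raised and nutlin-lowered genes were -0.113 and 0.0943. With a minimum log2 of 2 that of the lowered genes was 0.83. Of the 87 named genes 6, none of them called, changed sign. Over the leave-outs Pmaip1 ranged from -0.166 to 0.232 (positive, at 0.149, 0.232 and 0.0126, without line 287, its R270H library or the AH47A control). Adcy6 ranged from -0.159 to 5.5 (negative without the AH47A control), Nfkb1 from -0.149 to 0.0301 (positive without 621), Rel from -0.317 to 0.0236 (positive without AH47A), Ikzf3 from -0.0714 to 0.196 (negative, at -0.0228 and -0.0714, without the R270H library of AH47A or the 287 control) and Blnk from -0.0991 to 0.212 (negative, at -0.0991 and -0.0398, without AH47A or its R270H library).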

Other observations

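Some fatty acid genes were higher with R270H under nutlin. This list was chosen after its values were seen, so that its counts support nothing. Of 13 tested genes 5 were called higher and 10 were positive, with a median of 0.30. Elovl6, which lengthens palmitate, stood at 137, 60.2 and 95.3 CPM in the control and 245, 94.5 and 178 CPM with R270H (log2 0.80 ± 0.11, adjusted p = 0.000719). Acsl3, which activates long fatty acids, stood at 114, 29.9 and 49.9 CPM in the control and 164, 37.6 and 100.3 CPM with R270H (log2 0.63 ± 0.12, adjusted p = 0.00527). Fads1, a desaturase gene, was at log2 0.60 ± 0.15, adjusted p = 0.0209 and Acly, which supplies cytosolic acetyl-CoA, at log2 0.30 ± 0.08, adjusted p = 0.0419. Scd1, which makes monounsaturated fatty acids, was called (log2 0.60 ± 0.17, adjusted p = 0.0447) although it was lower with R270H in 287, with 386, 64.4 and 357 CPM in the control and 795, 58.7 and 586 CPM with R270H. Fasn, fatty acid synthase, was at log2 0.10 ± 0.10, adjusted p = 0.641.

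Nrp2 and Maoa were also called against the control under nutlin (Maoa log2 -2.32 ± 0.58, adjusted p = 0.0286). Nrp2 had 169 counts in 1 R270H library and 0 in all 3 control libraries, and it was present in AH47A cells with R270H, treated or not, and not detected in the other lines with R270H.

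Small RNA host genes and ribosomal protein genes were also listed after seeing the data. Of 14 host genes of small nucleolar RNAs 3 were called lower (21.4%, median -0.19), and of 82 ribosomal protein genes 5 were (6.1%, median -0.13). Over all genes tested 1.68% were called lower. None of 43 histone genes was called (median 0.30). The histone sum was 1094, 256 and 236 CPM in R270H cells and 1130 CPM, 244 and 173 CPM in control cells after nutlin, in AH47A, 287 and 621.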
